A study of Mus musculus with 6 samples.

Results

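The genes described here were 10 tetraspanins found in the membranes of extracellular vesicles or their parent compartments: Cd9, Cd63, Cd81, Cd82, Cd151, Tspan3, Tspan4, Tspan6, Tspan9 and Tspan14. They were picked by name, through the match of the Ensembl identifiers of the table to GENCODE symbols, and all 10 were present among its 56953 genes. The libraries were bulk RNA sequencing of mouse embryonic fibroblasts (MEFs), cultured connective tissue cells of embryos, 3 labelled WT and 3 labelled GαqKO. Both were grown untreated in DMEM with fetal bovine serum and antibiotics. The study's methods describe the GαqKO cells as Gαq/11 knockout MEFs, so that Gna11 as well as Gnaq was targeted, and give for each genotype a single source laboratory. Strain, embryonic age and the number of independent lines were not given in the sources used here, so the spread between libraries may be that of cultures of 1 line, and genotype and line cannot be told apart. In bulk libraries, fewer cells of a type and less RNA per cell cannot be told apart either.

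Tetraspanins are small membrane proteins that cross the membrane several times and expose a small and a large loop to the outside. Through the large loop they bind partner proteins, such as integrins, immunoglobulin superfamily proteins and metalloproteinases, and gather them into membrane patches called tetraspanin-enriched microdomains. Cd9, Cd63 and Cd81 are the usual surface markers by which extracellular vesicles are captured or counted. Cd63 cycles through late endosomes and is abundant on vesicles that bud inside them, whereas Cd9 and Cd81 sit mostly at the plasma membrane. The comparison asks whether the cells labelled GαqKO carry the same set of tetraspanin messages as WT cells, in a study that measured vesicle release by these fibroblasts.

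The family is recognized by a Cys-Cys-Gly signature in the large loop, which forms disulfide bonds that fold it. All 10 members carried it in the coding sequence of their Ensembl canonical transcript (GENCODE release 39, GRCm39), within proteins of 226 to 333 residues with 10 to 15 cysteines each. The bases around it are printed for the 3 vesicle markers and for the members that rose or fell most, because they are what makes these genes 1 family. Capitals mark the 9 bases of the signature, with 5 codons on either side. All are exonic coding bases, and each stretch spans an exon junction, so that the genomic interval holds an intron.
Cd9, chr6:125439137-125439298, minus strand: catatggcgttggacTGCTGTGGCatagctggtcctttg
Cd63, chr10:128747924-128748059, plus strand: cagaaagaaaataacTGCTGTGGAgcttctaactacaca
Cd81, chr7:142620081-142620427, plus strand: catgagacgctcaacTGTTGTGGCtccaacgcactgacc
Tspan6, chrX:132795782-132796192, minus strand: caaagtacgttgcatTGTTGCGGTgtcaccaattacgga
Tspan14, chr14:40635415-40637345, minus strand: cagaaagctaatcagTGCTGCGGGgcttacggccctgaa

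A second feature divides the members. Some tetraspanins end in a short cytoplasmic tail with a tyrosine sorting motif, a tyrosine followed by any pair of residues and then a bulky hydrophobic one, which adaptor complexes read to carry a protein into endosomes and lysosomes. A search of the last 10 residues of each canonical protein found it in 4 members, Cd63, Cd82, Cd151 and Tspan6, and not in the other 6. The final 10 codons before the stop are printed for these 4, with the motif in capitals. The 4 were lower in the libraries labelled GαqKO, a grouping made after the values were seen, as described further on.
Cd63, chr10:128748577-128748606, plus strand: aagagtattcgaagtggcTATGAAGTAATG
Cd82, chr2:93250213-93250242, minus strand: tctgaagacTACAGCAAGGTCcccaagtac
Cd151, chr7:141050578-141050607, plus strand: ttgTACCGAAGCCTCaagctggaacactac
Tspan6, chrX:132793450-132793479, minus strand: gccataacgaataaccagTATGAGATAGTA

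Values are normalized counts, meaning reads counted on a gene divided by 1 size factor per library. Library sums of normalized counts ran from 11392429 to 11483486. For 5 of the 6 libraries the reads behind them could be worked back, 9853000 to 12229175 on genes. In edgeR the biological coefficient of variation over these 5 was 5.21%, so that small differences could pass a test. Fold changes are differences in log2(normalized count + 1), GαqKO minus WT, each with its standard error, and adjusted p-values are from limma with the Benjamini-Hochberg correction over the 14096 genes tested. A gene was called at an adjusted p under 0.05. Of all genes tested, 65.8% were called in either direction, 31.8% were higher, 34.1% were lower, and 20.7% were called with a log2 fold change over 1 in size, so a call alone sets no gene apart here.

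The RNA counts of the targeted genes went partly against the labels. At the protein level, the study reports a lack of Gαq in the GαqKO cells by Western blot and immunofluorescence. Gna11 fell from 2147.9 ± 29 to 451.6 ± 28.7 normalized counts (mean ± SD, n = 3 each). Gnaq was higher, at 1690.8 ± 48.5 in WT and 1926.3 ± 36 in GαqKO, with a log2 fold change of 0.19 (limma adjusted p = 0.00212). Counts over a whole gene do not show whether a deleted part is missing from its message, so every direction given here belongs to the libraries labelled GαqKO. Fibroblast messages were high in all libraries, with Vim at 32787.9 or more, but 2 of the 9 fibroblast markers, Pdgfra and Thy1, were low in WT (means of 19.6 and 0.7) and higher in GαqKO (2319.7 and 64.9). Of the 9, 4 rose and 5 fell, among them Col1a1 (16671 to 5774.5) and Fn1 (11826.4 to 7117), and their sum was 84376 to 90131.2 in WT and 61317.1 to 64521.6 in GαqKO. The 6 epithelial markers together summed to between 515 and 540.9 normalized counts in WT and between 10.1 and 23.1 in GαqKO, mostly from Cdh1 and Krt14, while Epcam was at 8.1 or less in every library and Krt5 at 1 or less. The sums of the endothelial (12.6 to 25.4), muscle (10.2 to 18.5) and Schwann cell markers (57.8 to 65.8) overlapped between groups, and the blood cell markers were at 105.5 to 120.5 in WT and 70.4 to 104.1 in GαqKO, mostly from Cd68, with Ptprc at 3.1 or less. The part of these differences in the tetraspanin values was not tested.

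All 10 members passed the filter, which asked for 10 or more normalized counts in 3 or more libraries. Tspan6 passed it through its WT libraries alone. In the libraries labelled GαqKO, 4 members rose (Cd9, Tspan14, Tspan4 and Tspan3) and 6 fell (Tspan6, Cd63, Tspan9, Cd82, Cd81 and Cd151), against the 31.8% and 34.1% of all genes. Only Cd9 and Tspan6 passed a log2 fold change of 1 in size, 2 of 10 against 20.7% of all genes. The median log2 fold change of the members was -0.30, against -0.01 over all genes tested. The members therefore moved in both directions, and as a list their share of large changes was close to that of any gene.

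**Figure D1:**
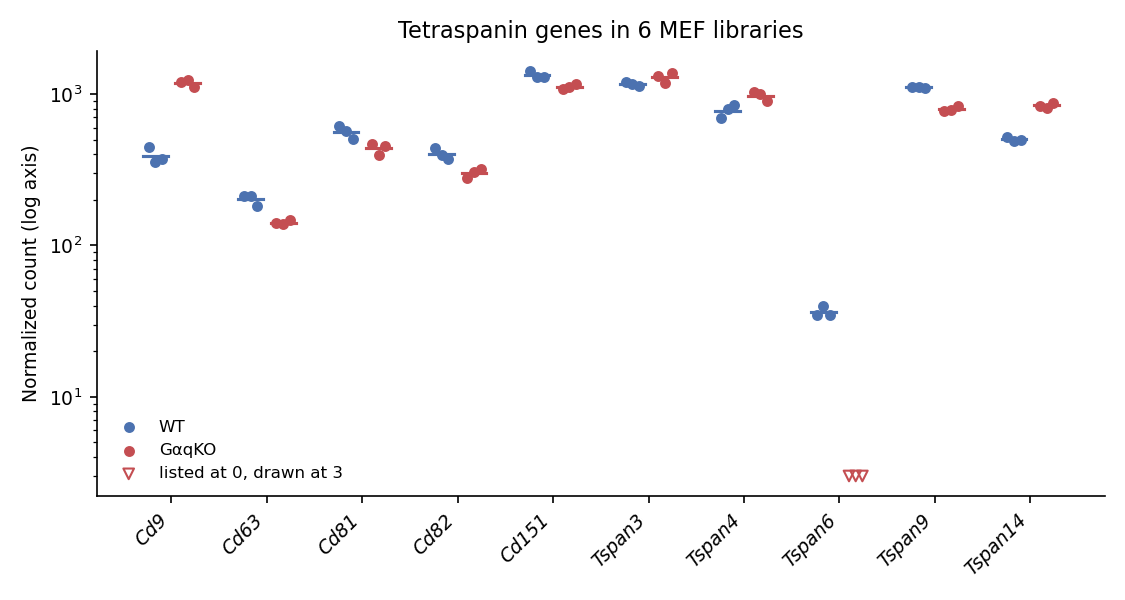
Normalized counts (log axis) of the 10 tetraspanin genes in the 3 WT (blue) and 3 GαqKO (red) libraries, with 1 point per library and a bar at each group mean. Cd9 and Tspan14 stand higher in all GαqKO libraries, Tspan6 is listed at 0 there (open triangles, drawn at 3), and the Tspan3 points of the groups overlap.

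Cd9, a plasma membrane tetraspanin that associates with β1 integrins and is a standard vesicle marker, rose most. Cd9 (ENSMUSG00000030342.9; chr6:125437210-125471778, minus strand, GRCm39) measured 448, 354.6 and 370.5 normalized counts in WT replicates 1, 2 and 3 and 1194.4, 1239.5 and 1108.7 in GαqKO. The lowest GαqKO library was well above the highest WT library. The rise was 3.03-fold, a log2 fold change of 1.60 (SE 0.083, limma adjusted p = 1.05e-09), and between 1.53 and 1.70 when any 1 library was left out. A processed copy, Cd9-ps on chromosome 7, matches 91.0% of the Cd9 transcript at 91.5% identity. It was listed at 0 in all 6 libraries, so any share of reads between them cannot be seen here.

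Cd81, the vesicle marker most like Cd9 in place and binding partners, moved the other way. Cd81 (ENSMUSG00000037706.18; chr7:142606314-142621672, plus strand) measured 610.9, 565.4 and 502.8 normalized counts in WT and 469.5, 395.4 and 453.2 in GαqKO. The groups did not overlap, though WT replicate 3 and GαqKO replicate 1 were close. Cd81 fell by 0.35 on the log2 scale (SE 0.087, limma adjusted p = 0.00303), and was at -0.53 with chromosome medians subtracted. In GENCODE release 39 all of its exons lie inside the span of R74862, a long noncoding gene on the opposite strand with means of 44 normalized counts in WT and 52.9 in GαqKO. The kit keeps strand, but the strand setting of the counting was not given, so reads of this pair may not have been told apart.

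Cd63, the tetraspanin of late endosomes, lysosomes and the vesicles made inside multivesicular bodies, also fell. Cd63 (ENSMUSG00000025351.15; chr10:128731528-128748709, plus strand) measured 213, 210.8 and 183.2 normalized counts in WT and 139.9, 137.6 and 146 in GαqKO. Every WT library was above every GαqKO library. Cd63 fell by 0.51 on the log2 scale (SE 0.11, limma adjusted p = 0.00104), and its mean fell by 30.2%. A copy, Cd63-ps, matches 61.9% of the Cd63 transcript at 98.4% identity and was listed at 0 in every library, so that reads of the copy may have been missed or placed on Cd63. Genes of its chromosome were lower as a whole, with a median log2 fold change of -0.28 over 667 genes tested on chromosome 10. With the median of each chromosome subtracted, Cd63 was at -0.23 and the call was lost (limma adjusted p = 0.0738).

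Because Cd9 rose while Cd81 and Cd63 fell, the proportions of the 3 vesicle markers differed within every library. Cd9 over Cd81, as a ratio of normalized counts, was 0.733, 0.627 and 0.737 in WT and 2.54, 3.13 and 2.45 in GαqKO, so that Cd9 reads were fewer than Cd81 reads in each WT library and more in each GαqKO library. Reads are not corrected for gene length, and which of the pair was higher in WT depends on the length used. Divided by all exon bases in kb, the WT mean of Cd9 was above that of Cd81 (183.9 and 148.6). It was below by canonical transcript (307.6 and 362.5) and by whole gene span (11.3 and 36.4). Cd9 over Cd63 went from 1.94 ± 0.223 to 8.38 ± 0.721 (SD, n = 3 each), 4.33 times as high. Cd63 over Cd81 was closer, at 0.362 ± 0.0122 in WT and 0.323 ± 0.025 in GαqKO, and GαqKO replicate 2 at 0.348 lay just under the lowest WT library at 0.349. A ratio within a library does not depend on the size factor. Each of these differences had p = 0.1 in a two-sided exact permutation test over libraries, which is the smallest p that 3 against 3 allows. The summed normalized counts of Cd9, Cd63 and Cd81 were 1153 ± 109.4 in WT and 1761.4 ± 48.9 in GαqKO, 1.53 times as high.

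**Figure D2:**
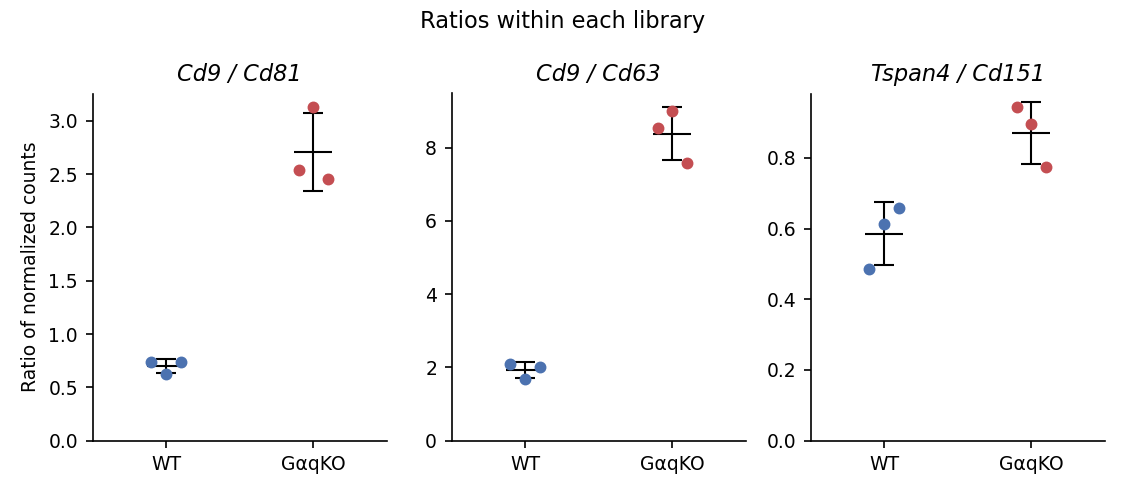
Ratios of normalized counts within each library (points; WT blue, GαqKO red) with the group mean and SD (black, n = 3), each on a linear axis from 0. Cd9 over Cd81 is under 1 in the 3 WT libraries and between 2.45 and 3.13 in the 3 GαqKO libraries. The ratios are not corrected for gene length.

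The other members with a tyrosine motif in the tail were Cd82, Cd151 and Tspan6. Cd82, known as a suppressor of metastasis that slows integrin-based movement, sits at chr2:93249455-93293485 on the minus strand (ENSMUSG00000027215.14). It measured 442.7, 395.4 and 372.5 normalized counts in WT and 279.8, 305.2 and 318.2 in GαqKO, with no overlap, and fell by 0.42 on the log2 scale (SE 0.088, limma adjusted p = 0.000834). Cd151, the main partner of the laminin-binding integrins, sits at chr7:141047256-141052572 on the plus strand (ENSMUSG00000025510.15). It measured 1418, 1296.9 and 1287.6 normalized counts in WT and 1085.5, 1106.5 and 1166.1 in GαqKO. Its groups did not overlap either, with a log2 fold change of -0.25 (SE 0.055, limma adjusted p = 0.00107), and of -0.43 with chromosome medians subtracted. The Cd151 span overlaps Polr2l on the opposite strand, whose means were 128.5 normalized counts in WT and 113.6 in GαqKO.

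Tspan6, an X-linked tetraspanin reported on endosomes and vesicles, was the lowest member in WT and was not found in GαqKO. Tspan6 (ENSMUSG00000067377.13; chrX:132791611-132799224, minus strand) measured 34.5, 39.8 and 34.6 normalized counts in WT and was listed at 0 in all 3 GαqKO libraries. Set against a floor of 3 counts per library, it was at least 12.1-fold lower in GαqKO, where a lower level was not detectable at this depth. The fitted log2 fold change of a gene at 0 depends on the pseudocount, and so its size is not read, and having passed the filter only through WT the gene had to differ. The median log2 fold change over the 484 genes tested on the X chromosome was -0.27.

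Read by tail, the 4 members with the tyrosine motif all fell, while of the 6 without it 4 rose and 2 fell (Cd81 and Tspan9). Over all genes tested, 31.8% were higher and 34.1% were lower. Among the 4, Tspan6 had passed the filter only through WT, and Cd63 lost its call with chromosome medians subtracted. Of the 21 other mouse tetraspanins listed, 5 carried the motif. Of these, Tspan7 fell, Upk1a did not pass the test, and Cd37, Tspan1 and Tspan8 were under the filter. The 12 tested ones without it gave 4 that rose and 7 that fell. Among these, Tspan11 and Cd53 passed the filter only through GαqKO, and Upk1b, Tspan13 and Tspan33 only through WT. The direction of such genes was set by the filter. Tspan2, Tspan12, Tspan15 and Tspan31 fell without that limit, so falls were not particular to tetraspanins with a motif. The grouping by tail was made after the values were seen and no test was run on it.

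Tspan14 and Tspan4 rose beside Cd9. Tspan14, a member of the TspanC8 group that carries the metalloproteinase Adam10 out of the endoplasmic reticulum, lies at chr14:40626016-40689527 on the minus strand (ENSMUSG00000037824.7). It measured 522.1, 491.5 and 496.7 normalized counts in WT and 838.5, 808.2 and 871.1 in GαqKO. The rise of 1.67-fold, a log2 fold change of 0.74 (SE 0.06, limma adjusted p = 1.13e-07), was the next largest after Cd9 and stood clear of both groups' spread. Tspan4, known for building the migrasomes that moving cells leave on their retraction fibres, lies at chr7:141055138-141073340 on the plus strand (ENSMUSG00000025511.16). It measured 691.3, 793.7 and 847.9 normalized counts in WT and 1023.5, 992.1 and 902.3 in GαqKO, with a log2 fold change of 0.33 (SE 0.076, limma adjusted p = 0.0018). The groups did not overlap, but the median over chromosome 7 was 0.18, and with chromosome medians subtracted Tspan4 was at 0.15 and no longer called (limma adjusted p = 0.111). Its span also overlaps Chid1 on the opposite strand, which was itself higher in GαqKO (216.3 to 278.9 normalized counts).

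Tspan9, a broadly expressed member first studied in platelets, fell with little spread. Tspan9 (ENSMUSG00000030352.16; chr6:127938349-128136217, minus strand) measured 1116.2, 1104.5 and 1092.2 normalized counts in WT and 769.1, 781.6 and 830.8 in GαqKO. It fell by 0.48 on the log2 scale (SE 0.053, limma adjusted p = 2.65e-06), and in no alternative was the size under 0.45. Tspan3, which binds a claudin in oligodendrocytes, measured 1201.9, 1160.9 and 1126.8 normalized counts in WT and 1310.9, 1188.6 and 1373.6 in GαqKO (ENSMUSG00000032324.12; chr9:56039009-56072761, minus strand). GαqKO replicate 2 lay inside the WT range. Its log2 fold change of 0.15 (SE 0.059, limma adjusted p = 0.0393) lost its call in 10 of 17 alternatives, among them the fit without WT replicate 2, WT replicate 3, GαqKO replicate 1 or GαqKO replicate 3 (0.15, 0.13, 0.14 and 0.10, with limma adjusted p = 0.0937, 0.101, 0.115 and 0.186).

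**Figure D3:**
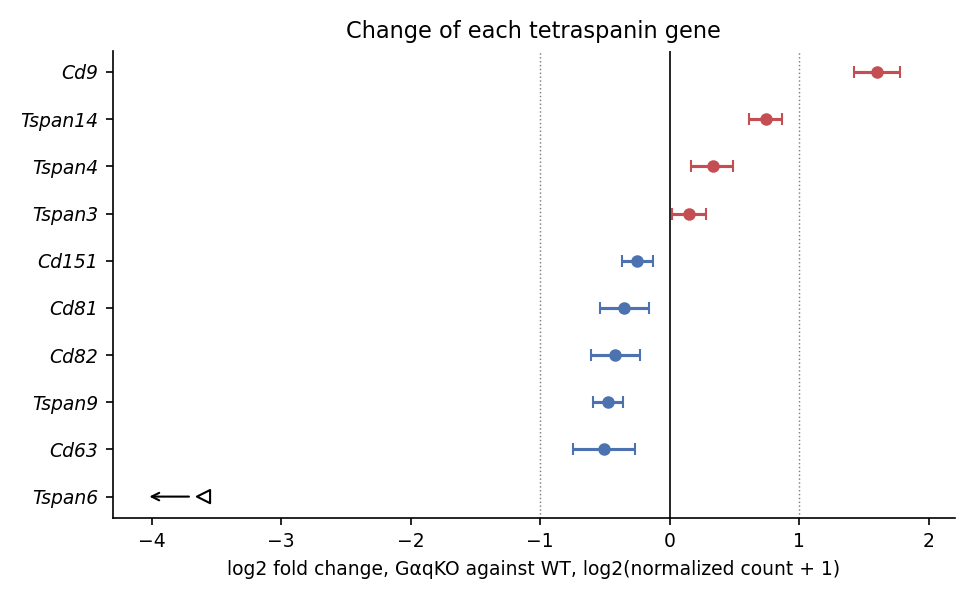
Log2 fold change, GαqKO against WT, on log2(normalized count + 1), with the 95% confidence interval of limma for 9 members (red higher, blue lower, n = 3 per group). Dotted lines mark a log2 fold change of 1 in size, which Cd9 passes, and the open triangle with an arrow marks the bound for Tspan6, which is listed at 0 in GαqKO.

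The closest pair of members moved in opposite directions. Cd151 and Tspan4 lie 2.6 kb apart on chromosome 7, on the same strand, and Cd151 fell while Tspan4 rose. With chromosome medians subtracted, Cd151 was at -0.43 and Tspan4 at 0.15, the latter no longer called (limma adjusted p = 0.111). The span of Tspan4 also overlaps that of Chid1, which was higher in GαqKO. Tspan4 over Cd151 was 0.487, 0.612 and 0.658 in WT and 0.943, 0.897 and 0.774 in GαqKO (ratio of normalized counts). Tspan9 lies 7.4 kb from Tspan11 on chromosome 6, on the opposite strand. Tspan11, which is not a member, was at 5.2, 5.8 and 2 normalized counts in WT and at 1076.1, 1041.8 and 1008 in GαqKO, above Tspan9 in the same libraries. It passed the filter only through GαqKO, so no test of it is given. The part of position in these values was not tested.

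To compare levels between genes, normalized counts were divided by the length of all exons of a gene in kb. On this scale Cd151 (256.7 ± 14 per kb) and Tspan4 (248.1 ± 25.4) led in WT, and their libraries overlapped, so their order was not resolved. They were followed by Cd9 (183.9 ± 23.5) and Tspan9 (173.8 ± 1.9), which overlapped, and by Cd81 (148.6 ± 14.4) and Tspan3 (143 ± 4.6), which overlapped as well. Cd82, Tspan14, Cd63 and Tspan6 came after them at 92 ± 8.2, 61.9 ± 2, 42.3 ± 3.5 and 12.9 ± 1.1 per kb, with no overlap between neighbours. In GαqKO, Cd9 came first at 555.5 ± 31.2 per kb, ahead of Tspan4 (310.3 ± 20.1), Cd151 (215.4 ± 8), Tspan3 (158.7 ± 11.6) and Tspan9 (124.9 ± 5.1). Cd81 (116.6 ± 10.3) overlapped both Tspan9 and Tspan14 (103.2 ± 3.9) in its libraries, and Cd82 (68.7 ± 4.5), Cd63 (29.5 ± 0.9) and Tspan6 (0) were last.

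The order depends on the length used. With the canonical transcript in place of all exons, Cd9 was at place 5 in WT (307.6 ± 39.3 per kb). Its WT libraries overlapped those of its neighbours Tspan3 and Tspan9, so that place was not resolved. In GαqKO Cd9 was again first (929.1 ± 52.3), though its libraries now overlapped those of Tspan4 (840.6 ± 54.4). Tspan4 was in the first or second place in both groups under both lengths. Cd63 was at place 8 of 10 in WT and 9 in GαqKO by canonical length, and at place 9 in both by all exons. By whole gene span, introns included, Cd151 was first in both groups, Cd9 was at place 6 in WT and 4 in GαqKO, and Cd63 at place 5 and 7. There the libraries of Cd9 overlapped those of Cd63 in WT and those of Tspan3 in GαqKO. Tspan6 was last under each of these lengths.

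The pool of the 10 messages differed in makeup. The 10 genes summed to 6475.5 ± 199.3 normalized counts in WT and 7078.7 ± 111.3 in GαqKO, 1.09 times as high, without overlap. Without Cd9 the other 9 summed to 6084.5 ± 154.7 and 5897.8 ± 173.8, and the libraries of the groups overlapped (exact permutation p = 0.3, two-sided). Per kb of exon, Cd9 made up 13.5% ± 1.3 of the pool in WT and 33.0% ± 1.6 in GαqKO (SD, n = 3 each). Cd151 went from 18.8% to 12.8%, Tspan9 from 12.8% to 7.4%, and Cd81 from 10.9% to 6.9%. Cd82 went from 6.7% to 4.1% and Cd63 from 3.1% to 1.8%, whereas Tspan14 went up from 4.5% to 6.1%. Tspan4, whose normalized count rose, had a like share of 18.3% ± 2.4 in WT and 18.4% ± 1 in GαqKO, with overlapping libraries. The shares of 9 members did not overlap between groups, each with p = 0.1 in the two-sided exact permutation test, the smallest possible. Tspan6, which passed the filter only through WT, is among the 9 and had to differ. A share of this pool has no figure over all genes, of which 65.8% were called, so this count sets the members apart from no other genes. Shares sum to a whole, so a rise of Cd9 lowers the others: Tspan3 went from 10.5% to 9.4% of the pool although its normalized count was not lower. By canonical length the shares of 8 members, Tspan6 again among them, did not overlap between groups, without Tspan3 and Tspan4. By whole gene span Tspan3 and Tspan4 took up 1.3 and 3.1 percentage points more in GαqKO. By whole gene span the rise of Cd9 was also smaller, from 2.7% to 8.6% of the pool, and Cd151, the gene with the shortest span, held 60.4% in WT and 53.0% in GαqKO.

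**Figure D4:**
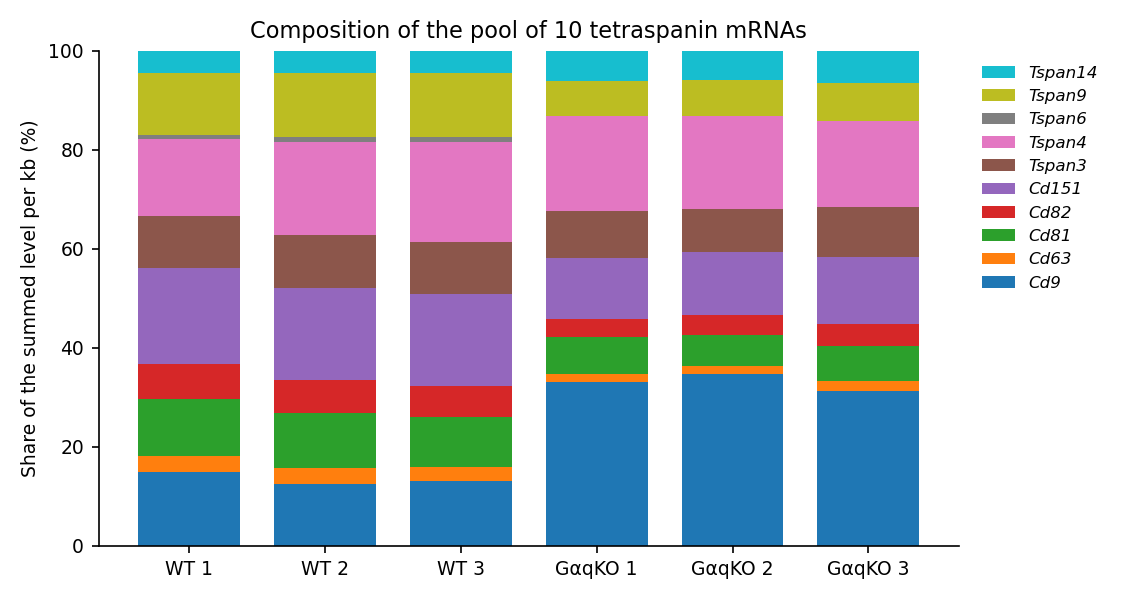
Share (%) of each tetraspanin gene in the summed level per kb of exon of the 10 genes, with 1 stacked bar per library. The Cd9 segment at the base is 12.4% to 14.9% in the WT libraries and 31.3% to 34.6% in the GαqKO libraries.

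The rest of the family also moved in both directions. Of 21 other tetraspanin genes, 14 passed the filter. Of these, 4 rose and 8 fell, against 31.8% and 34.1% of all genes, and Upk1a and Rom1 did not pass the test. The call came with a log2 fold change over 1 in size for 10 of the 14 (3 up, 7 down), against 2 of the 10 members and 20.7% of all genes, and the difference between the lists was not tested. The median was -0.83. Of these 10, 5 entered through the group where they were high and so had to differ: Tspan11, Cd53, Upk1b, Tspan13 and Tspan33.

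Besides Tspan11, the genes that rose past that size were Tspan17, another TspanC8 member (89.5 ± 25.8 to 301.9 ± 3.7 normalized counts, log2 fold change 1.78, limma adjusted p = 4.38e-07), and Cd53, a leukocyte tetraspanin. Cd53 was at 1, 0 and 2 normalized counts in WT and at 20.7, 19.7 and 31.2 in GαqKO, too few reads in WT for a fold. Of the 5 blood cell markers, 4 had the higher mean in WT, among them the pan-leukocyte marker Ptprc (1.9, 1.2 and 1 in GαqKO). Cd68, also among the 4, was at 54.5, 79.8 and 66.5 in GαqKO. Adgre1 had the higher mean in GαqKO (1 in WT and 3.9 in GαqKO). The part of blood cells in the Cd53 values was not tested.

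Upk1b, a uroplakin tetraspanin of the urinary tract lining, went from the highest WT mean among the 7 that fell past that size to near 0. Upk1b was at 527.3, 596.5 and 546.6 normalized counts in WT, and 1 GαqKO library held it at 0.9 while the other two were at 0. Tspan2, a neural and muscle tetraspanin, went from 206.5 ± 27.4 to 7.8 ± 2.7 normalized counts (24.2-fold lower on the fitted scale). Tspan7 went from 210.7 ± 16.7 to 13.3 ± 2.5, and Tspan12, a co-receptor in Norrin signalling, from 117 ± 11.9 to 13.5 ± 3.9. Tspan13 was at 39.1 ± 2.5 in WT and listed at 0 in all 3 GαqKO libraries, at least 13-fold lower by the floor of 3 counts per library. Tspan15 (277.2 ± 25.2 to 133.5 ± 10.3) and Tspan33 (33.2 ± 6.3 to 7.2 ± 3.6), both of the TspanC8 group, also fell. The sum of the epithelial markers, mostly from Cdh1 and Krt14, moved with the genes that fell, whereas Epcam did not (means of 3.1 in WT and 4.6 in GαqKO). The part of the epithelial difference in the genes that fell was not tested.

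**Figure D5:**
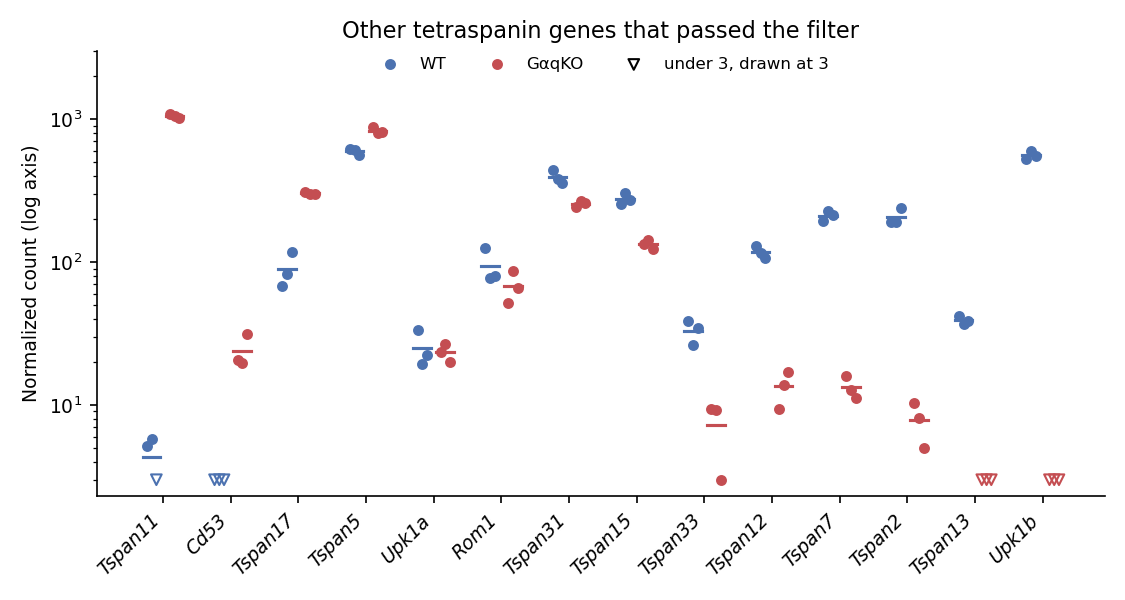
Normalized counts (log axis) of the 14 other tetraspanin genes that passed the filter, ordered by log2 fold change, with 1 point per library (WT blue, GαqKO red), bars at group means of 3 or more and triangles for libraries under 3. Tspan11 is between 1008 and 1076.1 in GαqKO and at 5.8 or less in WT, and Upk1b is at 527.3 or more in WT and at 0.9 or less in GαqKO.

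The TspanC8 group, a list made after the values were seen, split in direction. Of 5 tested, 3 rose and 2 fell, against 31.8% and 34.1% of all genes. Of the falls, that of Tspan33 was set by the filter, which it passed only through WT, and that of Tspan15 was not. Tspan14, Tspan17 and Tspan5 rose, the last from 597.4 ± 31.2 to 828.3 ± 39.6 normalized counts (log2 fold change 0.47, limma adjusted p = 1.66e-05; 0.15 and 0.0652 with chromosome medians subtracted), while Tspan15 and Tspan33 fell and Tspan10 was under the filter. Their sum was 1501.4 ± 16.6 normalized counts in WT and 2110.2 ± 51.2 in GαqKO, 1.41 times as high. Adam10, the protease that they escort, is described with the partners next and fell.

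Of 16 known partners of tetraspanins, 14 were tested. Of these, 5 rose and 7 fell, against 31.8% and 34.1% of all genes, and the median log2 fold change was -0.04. Integrins changed in both directions. Itgb1, the β1 chain that most partner integrins share, rose from 8254.4 ± 208.7 to 12548.1 ± 173.7 normalized counts (log2 fold change 0.60, limma adjusted p = 1.04e-08). Itga6, the laminin-binding chain paired with Cd151, measured 364.4, 341 and 334.9 in WT and 943.7, 1001.3 and 886.2 in GαqKO, a log2 fold change of 1.44, opposite in direction to Cd151 itself. Itga7, another laminin-binding chain, was at 705.2 ± 35 in WT and 17.8 ± 5.6 in GαqKO, a log2 fold change of -5.27. Itga3, the chain bound most firmly by Cd151, was higher by a small amount (0.15, limma adjusted p = 0.0086).

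The immunoglobulin partners that bind Cd9 and Cd81 directly fell. Ptgfrn went from 2506.6 ± 120.8 to 1403.6 ± 23.3 normalized counts (log2 fold change -0.84, limma adjusted p = 2.96e-09) and Igsf8 from 1527.5 ± 49.2 to 904.8 ± 25.5 (-0.75, limma adjusted p = 1.36e-08), whereas Igsf3 was higher at 0.80. Cldn1, a tight junction protein that binds Cd9 and Cd81, was at 9.4, 3.9 and 4.1 normalized counts in WT and at 20.7, 34.7 and 15.1 in GαqKO, and passed the filter only through GαqKO. Zdhhc2, a palmitoyltransferase that modifies Cd9 and Cd151, fell from 671.6 ± 47.2 to 290.9 ± 28.3. Adam10 fell by 0.56 on the log2 scale, Cd44 by 0.30, and Mmp14 was at 0.06 (limma adjusted p = 0.26). Ptgfrn, Igsf8, Igsf3, Itga3 and Adam10, as well as Scarb2 and Npc1 among the lysosomal genes, were named outside the rule for named genes, after their values were seen.

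Of 13 tested genes for other proteins used to identify vesicles or make them, 2 rose and 8 fell, against 31.8% and 34.1% of all genes, with a median of -0.27. Smpd3, the neutral sphingomyelinase that makes the ceramide for vesicle budding into multivesicular bodies, had the only change over 1 in size and went from 1569.4, 1481.4 and 1487.1 normalized counts in WT to 269.5, 220.8 and 267.9 in GαqKO, a log2 fold change of -2.58 (limma adjusted p = 4.55e-12). Sdc4, the most abundant of the list, fell by 0.27, and Anxa2 was higher at 0.31. Pdcd6ip, which encodes the budding factor Alix, was at 0.09 with overlapping libraries (limma adjusted p = 0.124).

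Late endosome and lysosome membrane genes moved in both directions. Of 6 tested, 3 rose and 2 fell, against the 31.8% and 34.1% of all genes, with a median of 0.16. Lamp1 measured 1081.8, 973.4 and 987.3 normalized counts in WT and 1491.2, 1389.8 and 1462.2 in GαqKO (log2 fold change 0.51, limma adjusted p = 1.98e-06), and Lamp2 was higher at 0.33. Laptm4a was at -0.01 with overlapping libraries. Scarb2, a lysosomal membrane receptor that carries an enzyme there, had the largest change of the list and went from 1019.1 ± 21.3 to 542.6 ± 31.7 normalized counts (log2 fold change -0.91, limma adjusted p = 1.27e-08). The other fall, that of Npc1 (-0.26), was near the threshold (limma adjusted p = 0.0454).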

How the data were processed

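Bulk RNA sequencing of 3 WT and 3 GαqKO MEF libraries was analysed, grouped by their titles. Per the study's methods, the authors selected poly-A RNA, sequenced pairs of 150 bp, aligned to GRCm39 with Rbowtie2 and counted with featureCounts against GENCODE release 32. The deposited values are a signal, normalized counts that the authors obtained by dividing read counts by 1 size factor per library. Tool versions and the strand setting were not given in the sources used here. Gene names and positions came from GENCODE release 39, which matched 98.9% of the identifiers and left 643 unmatched.

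Limma 3.58.1 was fitted to log2(value + 1) with a trend, over 14096 genes that reached 10 normalized counts in 3 or more libraries, adjusted by Benjamini-Hochberg. In 5 libraries 100.0% of nonzero values were whole reads within 0.1, and edgeR 4.0.16 and DESeq2 1.42.0 were run on these reads as alternatives, which called 4344 genes higher and 4535 lower, and 3538 and 3870. GαqKO replicate 3 was left out there, since its reads could not be recovered firmly. Exact permutation tests used scipy 1.17.1. On simulated data limma recovered 198 of 200 changed genes among 13688, with 11 false calls. Recovery was not split by size, so that of differences as small as those of Cd151 or Tspan3 was not tested separately. Recovery with as many genes differing as the 65.8% called here was not tested either. The 3 replicates are called biological by the study, but whether they were separate lines is not stated. P-values therefore set each difference against the spread between these libraries, which may hold no spread between lines. Floors of 3 counts cover counting error only.

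The members and lists were chosen with earlier results of these data known. Named genes were the 10 members, Gnaq, Gna11 and, in each other list, the called genes whose log2 fold change passed 1 in size and the 3 with the highest mean. Per-kb levels divided by all exon bases of a gene.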

Additional observations from a re-analysis of the deposited data

How the results depend on the processing

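The calls of Cd9, Cd81, Cd82, Cd151, Tspan9 and Tspan14 kept their direction and side of the threshold in all 17 alternatives. These were 3 other filters or priors, 2 pseudocounts, 2 scalings, 2 count tests, the replicate block, chromosome medians and 6 fits without 1 library. With chromosome medians subtracted, 2 members rose instead of 4, against 4341 of all 14096 genes tested, and Mmp14 was at -0.02. With 10 normalized counts required in every library, Tspan6 was not tested and 1 member was past a log2 fold change of 1, while 2 other tetraspanins rose and 3 fell. Of the 12054 genes tested under that filter, 3941 were higher and 4127 lower. The late endosome list had 1 gene lower instead of 2 with TMM or upper-quartile scaling, no filter, the replicate block, edgeR or DESeq2, and 1 to 2 when 1 library was left out. Laptm4a changed sign to 0.01 with upper-quartile scaling, to 0.06 with chromosome medians subtracted and lay between -0.05 and 0.03 when 1 library was left out, above 0 without WT or GαqKO replicate 1. Replicate numbers did not pair the samples: deviations of same-numbered libraries correlated at -0.045, -0.148 and -0.064. With the replicate block, Tspan3 (0.15, limma adjusted p = 0.0576) was the only member that lost its call. By gene span, the share of Tspan3 in the pool was 1.3 points higher in GαqKO, neighbours with overlapping libraries were 1 in GαqKO, and 1 in WT and 0 in GαqKO with exon bases outside other genes, where Cd81 had no base left and was not placed. Without a single library they were 1 to 2 in GαqKO. The canonical length was chosen after seeing the data. The cause of these changes was not tested.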
